A study of Mus musculus with 3 samples.

Results

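Matrix metalloproteinases, their tissue inhibitors and the related membrane protease gene Adam8 were described in mouse bone marrow as a set of 10 genes, taken by symbol from the 23282 entries of each library: Mmp2, Mmp8, Mmp9, Mmp13, Mmp14, Mmp25, Timp1, Timp2, Timp3 and Adam8. All 10 were found, each as a single entry. The marrow came from male wild type C57BL/6 mice, an inbred laboratory strain, given as 6 weeks old, that received the vehicle, sterile water, by oral gavage for 28 days. It was collected on day 29 and its red blood cells were lysed. The study set this vehicle against Asari Radix et Rhizoma, a herbal root preparation, and asked about haematopoietic stem cells, but herb-treated marrow was not analysed here, so the values describe a single group of 3 libraries and no treatment is compared. Whether each library is from its own mouse is not stated in the labels, and p-values measure only the spread between these samples, which may be technical.

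Matrix metalloproteinases (MMPs) are zinc-dependent enzymes that cut collagens and other matrix proteins, and they are made as inactive precursors that have to be activated. Neutrophils store several of them in granules during their maturation in the marrow, while stromal and bone-forming cells secrete others or carry them on the membrane. The tissue inhibitors (TIMPs) bind the active site and shut the enzymes off, and ADAM proteases, relatives that sit in the membrane, release the outer parts of surface proteins.

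The libraries were read from the polyadenylated end of transcripts, so a transcript gives about the same number of reads whatever its length, and levels are given as CPM, reads per 1000000 gene-assigned reads, without division by length. The 3 libraries held from 8104828 to 9168435 reads, and 3 reads, taken as the limit for a count of 0, corresponded to 0.327 to 0.370 CPM. Intervals and these limits cover counting error only. Marker genes of marrow cells were present: neutrophil, monocyte, B cell and megakaryocyte lists all had reads for each of their members. Red cell genes still held 75721 to 113007 CPM after lysis. Stroma, endothelial and T and NK cell lists also had reads for each member. Of 8 skeletal muscle genes, 7 had reads, with a summed mean of 15.7 CPM. Reads for each gene of a list therefore do not by themselves identify the tissue. Replicate 1 had the lowest red cell level, and its median gene was higher than in the remaining libraries by 0.13 log2 units on library totals and at -0.003 with TMM scaling (trimmed mean of M-values, a correction for such shifts in composition). Where the text ranks replicates for a gene or list, the ranking was the same under TMM and under the authors' own scaling unless stated.

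Promoters of Mmp8, Adam8 and Mmp13 are shown because Mmp8 and Adam8 are neutrophil-associated genes with many reads here and Mmp13 lies in the same gene cluster as Mmp8 at a far lower level. Each is the stretch of 250 bases before the RefSeq gene start in build GRCm38.p6, read 5′ to 3′ on the gene's strand: chr9:7558179-7558428 on the + strand for Mmp8, chr7:139992563-139992812 on the - strand for Adam8 and chr9:7272264-7272513 on the + strand for Mmp13. Capitals mark matches on either strand to 5 motifs that were chosen with the sequences in view: the TATA box (TATAAA or TATAAG), the AP-1 motif TGANTCA, the C/EBP motif TTGCNNAA, the PU.1/ETS motif GAGGAAGT and the GC box GGGCGG.
Mmp8: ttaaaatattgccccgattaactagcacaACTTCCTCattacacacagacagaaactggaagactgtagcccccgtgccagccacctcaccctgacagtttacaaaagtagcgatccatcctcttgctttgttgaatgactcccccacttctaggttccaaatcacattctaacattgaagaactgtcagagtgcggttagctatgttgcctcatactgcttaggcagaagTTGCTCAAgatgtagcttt
Adam8: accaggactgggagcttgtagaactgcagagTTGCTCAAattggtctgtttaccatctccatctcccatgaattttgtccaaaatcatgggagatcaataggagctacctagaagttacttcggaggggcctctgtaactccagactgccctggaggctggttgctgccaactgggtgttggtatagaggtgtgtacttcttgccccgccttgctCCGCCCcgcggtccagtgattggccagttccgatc
Mmp13: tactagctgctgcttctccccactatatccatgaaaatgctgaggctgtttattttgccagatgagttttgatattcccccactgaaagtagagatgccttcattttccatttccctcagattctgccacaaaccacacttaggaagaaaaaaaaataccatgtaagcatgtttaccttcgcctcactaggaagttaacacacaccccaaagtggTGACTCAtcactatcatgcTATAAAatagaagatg

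Mmp8 and Adam8 held the same match to the C/EBP motif, TTGCTCAA, a relaxed form of the sequence bound by factors that drive granulocyte genes. It lay 19 to 12 bases before the start of Mmp8 and 219 to 212 bases before that of Adam8. A match to this motif was present in 9.56% of 32851 promoters of the same length and in 2 of the 8 members found in the RefSeq table. Mmp8 also held the PU.1/ETS motif, on the opposite strand, which 2.44% of promoters had and no other of these 8 members did. The promoters of Mmp9 and Mmp2 were not among the 8 and were not searched. Mmp13 held an AP-1 match, found in 6.75% of promoters, and a TATA box, found in 17.0% of promoters and also in Timp3. The GC box stood in 6 of the 8 member promoters, against 32.7% of all, and was missing in Mmp8 and Mmp13. The annotated start of Mmp8 is 27 bases further downstream in GENCODE than in RefSeq, so distances from the start depend on the annotation. The Timp2 window (118355412 to 118355661, - strand) lies wholly inside the GENCODE gene, which starts at 118355740. The Timp3 window ends at 86300411, past the GENCODE start at 86300372, which its TATA match spans and its GC box follows. The GC box count and the Timp3 TATA box thus depend on the annotation as well. A match describes letters in this window and is no evidence of binding.

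The 2 neutrophil enzymes Mmp8 and Mmp9 held nearly all MMP reads. Over the 23 MMP genes of the files that were listed, Mmp8 and Mmp9 together made up 98.2%, 97.8% and 98.2% of reads in replicates 1, 2 and 3. The 10 genes summed to 2180 ± 268 CPM (SD, n = 3), or 0.218% ± 0.0268 of reads. Their median was 15.1 CPM, with Mmp2 and Timp1 included, which had fewer than 30 reads. The median of the 11833 entries with at least 30 reads in total was 16.8 CPM, so these medians differ in read minimum. Of the 8 members with that many reads, Mmp8, Mmp9, Timp2, Adam8 and Timp3 were above 16.8 CPM. Mmp25, Mmp14 and Mmp13 were below it. The set spans a wide range of levels, from Mmp8, at rank 38 of all entries, to Timp1, at rank 13518. In bulk marrow, fewer cells of a type and less RNA per cell cannot be told apart.

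**Figure D1:**
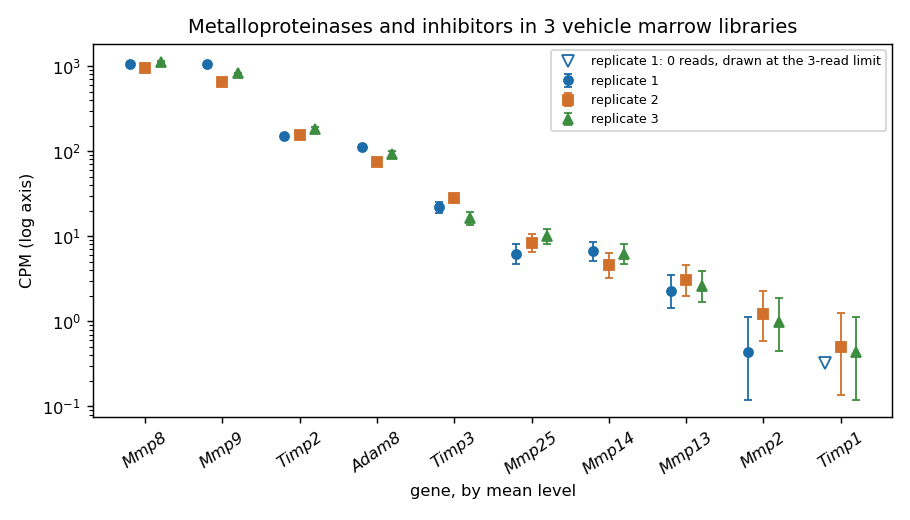
Level of each of the 10 genes in CPM (log axis), 1 point per library with its exact 95% Clopper-Pearson counting interval, ordered by mean. Mmp8 and Mmp9 lie between 656 and 1127 CPM, Timp2 and Adam8 between 75.0 and 181 CPM, and Timp1 at or under 0.494 CPM, with the open triangle marking 0 reads.

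Mmp8 encodes neutrophil collagenase, a secondary granule enzyme that cuts fibrillar collagen. The gene (ENSMUSG00000005800.3) lies on chromosome 9, 7558456 to 7568485, in GRCm38. Its level was 1047, 952 and 1127 CPM in replicates 1, 2 and 3 (9597, 7714 and 10298 reads), a mean of 1042 ± 87.7 CPM (SD, n = 3). Replicate 3 was highest and replicate 2 lowest, a 1.18-fold range. Between libraries the gene differed by more than counting noise (adjusted p = 2.86e-21 by an exact binomial comparison of every library with the remaining pair, Benjamini-Hochberg adjusted over all tested genes). On library totals its coefficient of variation (CV) of 8.42% was below the median of 10.9% over the 2767 entries at 50 CPM or more. With TMM scaling its levels spread more widely, at 982, 969 and 1179 CPM in replicates 1, 2 and 3, so this comparison holds for library totals only.

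Mmp9 encodes gelatinase B, which neutrophils carry in tertiary granules and which cuts denatured and basement membrane collagen. The gene (ENSMUSG00000017737.2) lies on chromosome 2, 164940780 to 164955850. It stood at 1053, 656 and 821 CPM in replicates 1, 2 and 3 (9653, 5313 and 7499 reads), a mean of 843 ± 200 CPM (SD, n = 3). Replicate 1 was highest and replicate 2 lowest, a 1.61-fold range that was far wider than counting noise (adjusted p = 3.34e-141, exact binomial test). Its CV was 23.7%, against 8.42% for Mmp8. With TMM scaling the levels were 988, 668 and 859 CPM, in the same order.

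The balance of the 2 enzymes was not the same in the 3 libraries. Mmp8 made up 49.9% of the reads of the pair in replicate 1 (exact 95% Clopper-Pearson interval 49.1% to 50.6%), 59.2% in replicate 2 (58.4% to 60.1%) and 57.9% in replicate 3 (57.1% to 58.6%). The pair was thus level in replicate 1, and Mmp8 was 1.45-fold and 1.37-fold higher in replicates 2 and 3. The mean log2 ratio of 0.33 ± 0.29 (SD, n = 3) was not separated from 0 over the 3 libraries (exact two-sided sign-flip permutation p = 0.5, where 0.25 is the smallest that 3 libraries can give).

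Mmp25 (chromosome 17, 23628311 to 23645277) encodes leukolysin, an MMP held to the neutrophil surface by a lipid anchor, and it was a minor transcript beside the granule enzymes. Its level was 6.22, 8.39 and 9.96 CPM in replicates 1, 2 and 3 (57, 68 and 91 reads). Replicate 1 was lowest and replicate 3 highest, and the gene missed the threshold of 0.05 when scaled by totals (exact binomial test, adjusted p = 0.0526). It passed with TMM scaling (0.00919), with the authors' scaling (0.00912), without the 20 most abundant genes in the totals (0.0134) and with a chi-square test (0.0349). Without replicate 2 it also passed (0.0165), and without replicate 1 or 3 it did not (0.451 and 0.197).

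Adam8, a protease and adhesion protein of the leukocyte surface (ENSMUSG00000025473.16), lies on chromosome 7, 139978932 to 139992562. Its level was 112, 75.0 and 92.9 CPM in replicates 1, 2 and 3 (1029, 608 and 849 reads). Its mean was 93.4 ± 18.6 CPM (SD, n = 3), and the libraries differed by more than counting noise (adjusted p = 2.41e-10, exact binomial test). Replicate 1 was highest and replicate 2 lowest, as for Mmp9. The ratio of Mmp9 to Adam8 was 9.38, 8.74 and 8.83 in replicates 1, 2 and 3, and their exact intervals overlapped. On the log2 scale this ratio varied by an SD of 0.06, against 0.24 for the ratio of Mmp8 to Adam8.

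Timp2 was the main inhibitor transcript. It encodes a secreted inhibitor that also takes part in the activation of the Mmp2 product at the cell surface. The gene (ENSMUSG00000017466.9) lies on chromosome 11, 118301069 to 118355740. Its level in replicates 1, 2 and 3 was 151, 154 and 181 CPM (1386, 1247 and 1658 reads), a mean of 162 ± 16.8 CPM (SD, n = 3). Replicate 3 stood above the other libraries, which were level when scaled by their totals (exact binomial test, adjusted p = 7.86e-07). Without replicate 3 the gene did not pass the exact binomial test (adjusted p = 0.762), with a CV of 1.25% in place of 10.3%. Timp2 made up 87.6% ± 3.76 of the reads of the 4 TIMP genes.

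Timp3 encodes an inhibitor that binds to the matrix and also blocks ADAM proteases. The gene (ENSMUSG00000020044.13) lies on chromosome 10, 86300372 to 86349506. Replicates 1, 2 and 3 held 21.8, 27.9 and 16.2 CPM (200, 226 and 148 reads). Replicate 2 was highest and replicate 3 lowest (adjusted p = 9.96e-05, exact binomial test), the reverse of Timp2 in these 2 libraries. Timp3 lies inside Syn3, which is annotated over the same stretch. Syn3 held 44, 32 and 60 reads, fewer than Timp3 in each library, so most reads of Timp3 were not also counted for Syn3.

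Timp1 encodes the inhibitor that pairs with the precursor of gelatinase B, and it was close to the limit of what these libraries could show. It had 0, 4 and 4 reads in replicates 1, 2 and 3, or 0, 0.494 and 0.438 CPM, and the 0 allows up to 0.327 CPM. Syn1, annotated over the same stretch of chromosome X, had 41, 27 and 29 reads. No source used here gives the strand setting of the counting, so reads of Timp1 assigned to Syn1 cannot be told apart.

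The neutrophil enzymes stood about 10 times above the inhibitors at the transcript level. Mmp8, Mmp9 and Mmp25 summed to 2106, 1616 and 1958 CPM in replicates 1, 2 and 3, and Timp1, Timp2 and Timp3 to 173, 182 and 198 CPM. For the enzymes, replicate 3 in place of replicate 1 was highest with TMM scaling, at 2048 against 1976 CPM, and with the authors' scaling. The log2 ratio of the sums was 3.35 ± 0.23 (SD, n = 3), a 10.2-fold difference seen in 3 of 3 libraries (exact two-sided sign-flip permutation p = 0.25, the smallest possible). In replicate 1, Mmp9 was 3218-fold above the limit of 3 reads set for the 0 of Timp1. The exact two-sided 95% interval of the ratio there starts lower, at 2616. In replicates 2 and 3 the ratio was 1328 (exact 95% interval 518 to 4877) and 1875 (732 to 6882), with 4 reads of Timp1 in each. Transcript levels do not give the amount of enzyme or inhibitor.

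Enzymes of stroma and bone were low. Mmp14, a membrane-bound MMP that activates the Mmp2 product, had 6.65, 4.57 and 6.24 CPM in replicates 1, 2 and 3 and did not pass the test (61, 37 and 57 reads, adjusted p = 0.273, exact binomial test). Mmp13, a collagenase of bone-forming cells and growth plate cartilage, had 2.29, 3.08 and 2.63 CPM, with 70 reads in all (adjusted p = 1, exact binomial test). Mmp2, encoding gelatinase A, had 4, 10 and 9 reads, or 0.436, 1.23 and 0.985 CPM, and was too low to be tested. The counting intervals of each gene overlapped in all 3 libraries. Overlap does not exclude a difference, and at these depths a difference between libraries could be missed.

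Markers of stroma and of bone-forming cells were present, and those of cartilage were close to 0. The osteoblast list summed to 132, 120 and 97.5 CPM in replicates 1, 2 and 3, with reads for 7 of 9 genes. Ibsp, encoding a bone matrix protein, led it with 48.2, 67.5 and 36.7 CPM, followed by Runx2 and Col1a1, and the defining markers Sp7 and Dmp1 had no read. The chondrocyte list stood at 1.96, 1.11 and 0.547 CPM, with no read of Acan, a core proteoglycan gene of cartilage. The osteoclast list stood at 102, 86.5 and 86.4 CPM, carried by Itgb3 and Acp5, which other marrow cells also express, and its markers Calcr, Ocstamp and Dcstamp had no read. The stroma and fibroblast list held 185, 199 and 147 CPM with reads for all 10 genes. Their part in the levels of Mmp2, Mmp13 and Mmp14 was not tested.

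In the order of mean levels, from Mmp8 through Mmp9, Timp2, Adam8, Timp3, Mmp25, Mmp14, Mmp13 and Mmp2 to Timp1, most neighbours did not overlap over the 3 libraries. The exceptions were Mmp8 and Mmp9, Mmp25 and Mmp14, and Mmp2 and Timp1. Mmp25 was above Mmp14 in 2 of 3 libraries, by a mean log2 ratio of 0.49 ± 0.51 (SD, n = 3, exact sign-flip permutation p = 0.5). The narrowest step without overlap was from Timp2 to Adam8, 1.74-fold between the means, in the same direction in 3 of 3 libraries. All 10 ranks were the same under each scaling and without each library in turn.

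Of the 10 genes, 8 had enough reads to be tested and 5 differed between libraries, Mmp8, Mmp9, Timp2, Timp3 and Adam8. That is 62.5% of those tested, near the 56.5% of all tested genes that differed, so the count shows nothing particular to the set. With TMM scaling 6 passed, Mmp25 being the addition, as did 52.0% of all tested genes. The same count of 6 was reached with the authors' scaling (51.9% of all) and without the 20 most abundant genes in the totals (52.2% of all). Among the 5, Mmp8, Mmp9 and Adam8 were lowest in replicate 2, Timp2 in replicate 1 and Timp3 in replicate 3. Among all genes that differed, 2538, 1044 and 3105 of 6687 were lowest in replicates 2, 1 and 3. Those are 21.4%, 8.82% and 26.2% of all tested genes. Mmp9 and Adam8 were highest in replicate 1, Timp3 in replicate 2, and Mmp8 and Timp2 in replicate 3. Among all genes that differed, 3688, 1751 and 1248 of 6687 were highest in replicates 1, 2 and 3. Those are 31.2%, 14.8% and 10.5% of all tested genes. The median CV of the 8 genes was 19.5%, and 17.1% over all tested genes.

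**Figure D2:**
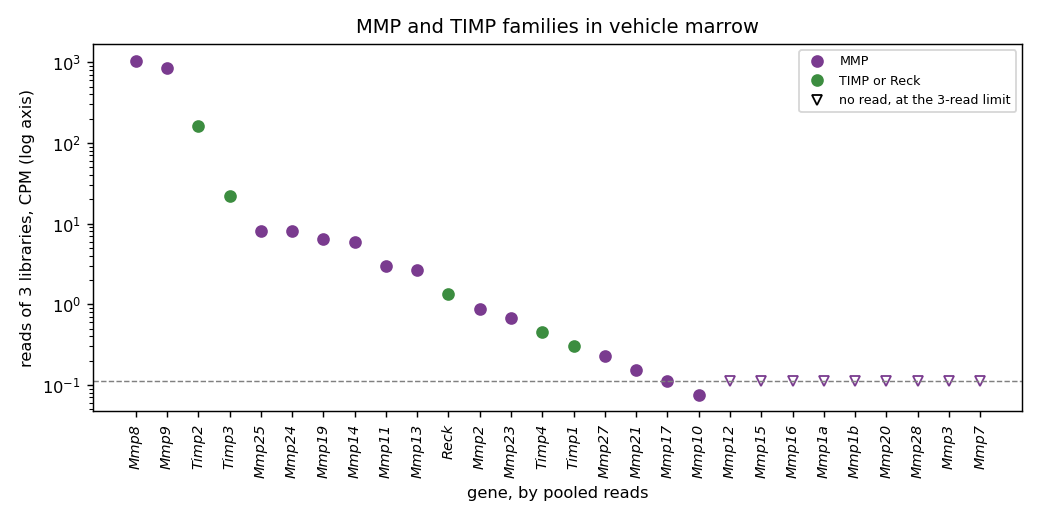
Reads of the 3 libraries together, in CPM (log axis), for the 23 MMP genes, the 4 TIMP genes and Reck, ordered by level. Mmp8 and Mmp9 lie about 100 times above the next MMP, and open triangles on the dashed line mark the 9 MMP genes with no read, for which 3 reads would be 0.114 CPM.

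Apart from Mmp8 and Mmp9, MMP genes were low or had no read, both inside and outside the set. Of 17 MMP genes outside the set, 9 had no read in any library: Mmp1a, Mmp1b, Mmp3, Mmp7, Mmp12, Mmp15, Mmp16, Mmp20 and Mmp28. That allows up to 0.114 CPM each over all reads, provided that their transcript ends could be counted. The highest outside the set were the membrane-type Mmp24 at 7.96 ± 1.75 CPM (SD, n = 3), Mmp19 at 6.47 ± 1.25 CPM and Mmp11 at 3.03 ± 0.935 CPM, levels like those of Mmp25, Mmp14 and Mmp13. These 3 were the ones with enough reads to be tested, and 0 of 3 passed (exact binomial test, and also 0 with TMM scaling and with a chi-square test, with 1 of 3 at an unadjusted p under 0.05).

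The contrast was sharpest within the MMP gene cluster of chromosome 9. From Mmp13 at 7272514 to Mmp7 at 7699585 in GRCm38, 427 kb hold 10 MMP genes, and Mmp8 had 99.7% of their 27687 reads. Mmp13 had 70 reads, Mmp27, the next gene after Mmp8, had 6 reads and Mmp10 had 2 reads. The other 6 genes of the cluster had none. Mmp8 was 457-fold, 309-fold and 429-fold above Mmp13 in replicates 1, 2 and 3, with 21 to 25 reads of Mmp13 behind each ratio.

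Other inhibitors were low as well. Reck, a membrane-anchored MMP inhibitor, had 1.32 ± 0.211 CPM (SD, n = 3) and 35 reads in all, Timp4 had 7, 5 and 0 reads, and Tfpi2 had none. A2m, a broad protease trap made mainly by the liver, had 0, 4 and 0 reads. Reck, the single gene of this list with enough reads, did not pass the exact binomial test (0 of 1, also 0 at an unadjusted p under 0.05, with TMM scaling and with a chi-square test).

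Reads of the listed ADAM genes were spread over more members than those of the MMPs, while ADAMTS genes other than Adamts10 were low. Among 12 other ADAM genes, Adam10 at 122 ± 20.6 CPM (SD, n = 3) and Adam17 at 75.5 ± 9.03 CPM, the 2 main sheddases of surface proteins, stood at levels like that of Adam8, followed by Adam15 at 46.2 ± 10.1 CPM. Adam8 held 24.7% ± 4.05 of the reads of the 13 ADAM genes. Of the 7 other ADAM genes tested, 5 differed between libraries, near the 56.5% of all tested genes, and Adam10 was highest in replicate 2 (123, 143 and 102 CPM), where Adam8 was lowest. Of 19 ADAMTS genes, secreted relatives, Adamts10 led with 17.6, 15.3 and 26.3 CPM in replicates 1, 2 and 3. Its mean was 19.7 CPM of a list mean of 33.0 CPM, and the next, Adamts5, had a mean of 2.34 CPM. In this list 5 genes had no read and 6 of the 8 tested differed, a share to be read against the same 56.5%.

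**Figure D3:**
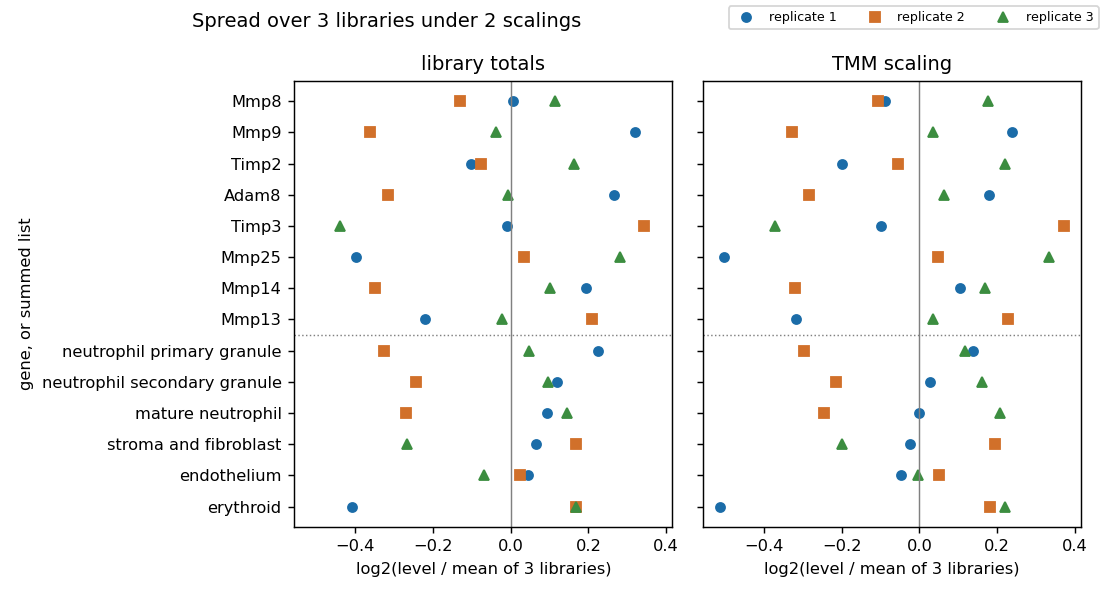
Log2 of the level in each library over the mean of the 3 libraries, for the 8 genes with at least 30 reads (above the dotted line) and for summed marker lists (below), on library totals (left) and with TMM scaling (right). Mmp8, Mmp9, Adam8 and the 3 neutrophil lists are lowest in replicate 2, while Timp3 and the stroma list are highest in replicate 2 and lowest in replicate 3.

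The neutrophil lists were lowest in replicate 2 as well. Primary granule genes, made first in maturation, summed to 2155, 1470 and 1906 CPM in replicates 1, 2 and 3, with reads for 7 of 7 genes. Secondary granule genes summed to 17966, 13978 and 17674 CPM, and genes of mature neutrophils to 74980, 58308 and 77714 CPM, with reads for all 10 and 15 genes. Replicate 2 was lowest in all 3 lists. Replicate 1 was highest for the primary granule genes, though by little with TMM scaling (2022 against 1994 CPM), and for the secondary granule genes replicate 3 took that place with TMM and with the authors' scaling. The eosinophil and basophil list was also lowest in replicate 2, with a wider range (1613, 802 and 1983 CPM, reads for 9 of 9 genes). The part of these lists in the levels of Mmp8, Mmp9 and Adam8 was not tested.

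Set against reads of the granule lists, Mmp8 and Mmp9 behaved differently. Per 1000 reads of primary granule genes there were 489, 446 and 431 reads of Mmp9 in replicates 1, 2 and 3, a CV of 6.60%, and 52.1, 51.0 and 48.8 reads of Adam8, a CV of 3.35%. Mmp14, with far fewer reads, had a CV of 3.25% on this measure (3.09, 3.11 and 3.27 reads), so a low CV was not particular to Mmp9 and Adam8. Counting error alone gives a CV of about 13.9% for Mmp14 and 3.47% for Adam8. A CV below these values does not by itself show a steady ratio. For Mmp8 the same measure was 486, 647 and 591 reads, with a wider CV of 14.3%. Per 1000 reads of secondary granule genes the order turned: Mmp8 had 58.3, 68.1 and 63.8 reads, a CV of 7.77%, and Mmp9 had 58.6, 46.9 and 46.4 reads, a CV of 13.6%. For Mmp8 this was little below its CV of 8.42% in CPM on library totals and 8.29% per reads of mature neutrophil genes. Ngp and Camp made up most of the secondary granule list, with means of 7226 and 4726 of 16539 CPM. These CVs rest on 3 libraries and are descriptions, and a ratio does not depend on the scaling.

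Timp3 varied more against the neutrophil lists than in CPM. Its CV was 26.6% in CPM, 45.0%, 40.5% and 42.4% per reads of primary granule, secondary granule and mature neutrophil genes, and 12.8% per reads of the stroma and fibroblast list. The members of that list include Cxcl12 at 139, 134 and 110 CPM and Adipoq, a fat cell hormone gene also used to mark marrow stroma, at 16.7, 24.4 and 19.7 CPM. The endothelial list held 44.3, 43.7 and 40.9 CPM. A high replicate 2 and a low replicate 3 were not particular to stroma: immediate early and stress genes summed to 1970, 2112 and 1766 CPM in replicates 1, 2 and 3, with replicates 1 and 3 level under TMM scaling, and B cell genes to 591, 641 and 545 CPM with TMM scaling. The part of these lists in the level of Timp3 was not tested. For Timp2 the CV per reads of the neutrophil and stroma lists, from 13.4% to 27.0%, was above its CV of 10.3% in CPM on library totals. With TMM scaling Timp2 spread more widely, at 142, 157 and 190 CPM in replicates 1, 2 and 3, so this comparison depends on the scaling.

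**Figure D4:**
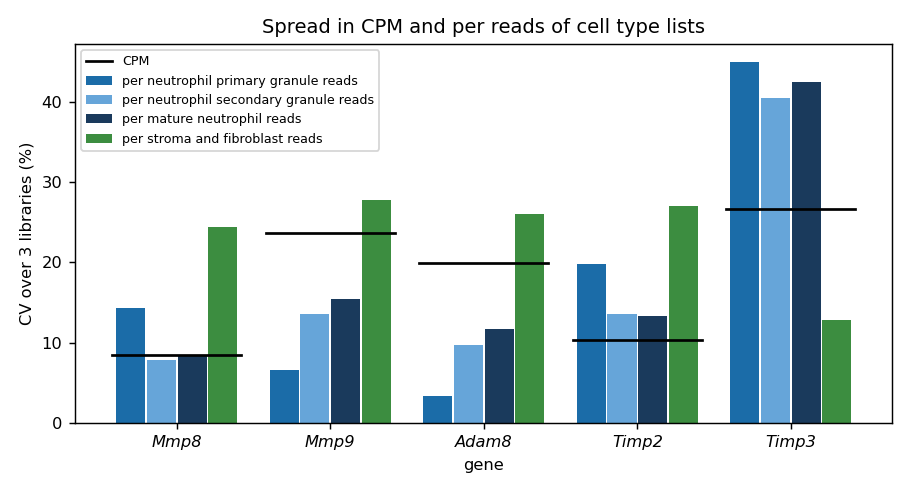
CV over the 3 libraries (%) of 5 genes in CPM (black line) and per reads of 4 marker lists (bars). Mmp9 and Adam8 have their lowest bars, 6.60% and 3.35%, with primary granule genes, Mmp8 with secondary granule genes at 7.77% and Timp3 with stroma genes at 12.8%. The lowest bar of Mmp8 is close to its 8.42% in CPM on library totals.

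Genes with the most similar pattern were taken for the 4 members of at least 300 reads with the largest CV, by the Euclidean distance of log2(CPM / mean CPM) over the 3 libraries among 2715 genes at 50 CPM or more. Nearest to Mmp9 were Pstpip1 (distance 0.00651; 77.0, 47.9 and 60.3 CPM), which encodes an adaptor of the leukocyte cytoskeleton, Cdc42se1 and Ndufv3. Nearest to Adam8 were Tuba4a, Rtn3 and Coro1c, and nearest to Timp2 were Rpl31, Ccdc167 and Atp6v0b. Timp3 had Phc3, Rc3h1 and Smek1 as its nearest, at 0.0926 to 0.0971. With 3 libraries close matches are common: 35 genes lay within 0.1 of Mmp9, 75 of Adam8, 97 of Timp2 and 4 of Timp3. Within the set, Mmp9 and Adam8 lay 0.0791 apart, Mmp8 and Timp2 0.131 and Mmp8 and Mmp9 0.419.

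Among genes that activate, bind or carry these enzymes, Lcn2, Srgn and Elane had the highest levels. Of 20 listed, 13 were tested and 11 differed between libraries, where 56.5% of all tested genes did. Of the 13 tested, 8 passed with their lowest level in replicate 2, against 21.4% of all tested genes. Among all genes that differed, 2538 of 6687 were lowest there. Lcn2, whose product binds gelatinase B and which is itself a granule gene, had 933, 675 and 1025 CPM in replicates 1, 2 and 3, a level like that of Mmp9. Srgn, the proteoglycan core of granules, had 532, 355 and 337 CPM, and the elastase gene Elane 416, 294 and 485 CPM. Furin, the convertase that cuts the precursors of membrane-type MMPs, did not pass the test, with 67.4, 61.2 and 64.4 CPM (adjusted p = 0.601, exact binomial test). Of the plasmin system, the receptor gene Plaur had 26.1 ± 6.05 CPM (SD, n = 3), the protease gene Plau 1.38 ± 0.489 CPM, and Plat and Plg had no read.

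Matrix and niche genes whose products these enzymes can cut were led by Vcam1, Fn1 and Cxcl12. Of 20 listed, 16 were tested and 11 differed, against 56.5% of all tested genes. Of the 16 tested, 8 passed with their lowest level in replicate 3 and 3 in replicate 1. The shares of all tested genes were 26.2% and 8.82%. Among all genes that differed, 3105 and 1044 of 6687 were lowest in these libraries. The adhesion gene Vcam1 had 184, 194 and 157 CPM in replicates 1, 2 and 3, and the stem cell chemokine gene Cxcl12 139, 134 and 110 CPM. Fn1, encoding fibronectin, had 144, 148 and 141 CPM and did not pass (exact binomial test, adjusted p = 0.946), but passed with TMM scaling. The collagen genes Col1a1 and Col1a2 had 36.8, 17.4 and 15.7 CPM and 94.2, 72.8 and 52.6 CPM, with replicate 1 highest in both. The list total was 678, 653 and 543 CPM, but replicate 2 in place of replicate 1 was highest with TMM and with the authors' scaling.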

How the data were processed

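RNA of 3 vehicle marrow libraries (500 ng of total RNA, Lexogen QuantSeq, per the labels' protocols) was analysed. Bowtie2, bedtools and mm10 are named in the submitters' processing notes. Not given in the sources used here are versions, annotation, strand setting and normalization. The authors deposited log2(x + 1) values, where x is reads per 1000000 after an adjustment of the library size, as the values show: 100% were whole multiples of the value of 1 read (tolerance 1e-06). Whole reads were recovered from these. The planned count tests therefore ran on recovered reads. For genes with at least 30 reads, every library was compared with the remaining pair by a two-sided exact binomial test; the smallest p was multiplied by 3 and Benjamini-Hochberg adjusted over all tested genes, threshold 0.05 (Python 3.11.15, SciPy 1.17.1). The test measures spread against counting noise only, and was tested on simulated data. TMM trimmed 30% of ratios and 5% of intensities. Gene positions are from GENCODE M21 (GRCm38, called mm10), promoters from RefSeq (GRCm38.p6, 8 of 10 members matched). The members and gene lists were chosen with earlier results of these data known. Named were all members, the leading, passing or unread genes of the lists, genes overlapping a member, and the nearest patterns. The text gives a part of these. Alternatives were other scalings, read minimums, a chi-square test, a pseudocount and leaving out each library.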

Additional observations from a re-analysis of the deposited data

How the results depend on the processing

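Of the 50 alternative values of the main results, 42 kept within the limits set (within 1.5 times for counts, within 1 SD for levels and ratios), and 8 moved. Without the 20 most abundant genes in the library totals, the summed neutrophil enzymes stood at 3393 CPM and the summed inhibitors at 332 CPM, as a smaller denominator gives by construction. Timp1 lies under 1 CPM, so a pseudocount of 1 changed its ratio to Mmp9. The log2 ratio of the mean levels of Mmp9 and Timp1 was then 9.33 in place of 11.41. Leaving out replicate 1 or replicate 2 gave 10.63 or 12.06. The 0 of Timp1 in replicate 1 entered these means as 0. With the limit of 3 reads in its place, the mean of the log2 ratios per library was 10.97 ± 0.64 (SD, n = 3). Leaving out each library lowered the number of genes that differed from 6687 to 3866 to 4392, with fewer libraries compared, and gave 4 (without replicate 3, Timp2 being lost) to 6 members (without replicate 2, with Mmp25) in place of 5, where 38.5% and 39.0% of all tested genes differed. Under other scalings, read minimums and the chi-square test 5 or 6 members differed, among them 6 with the chi-square test, where 58.9% of all tested genes did. Depth limits Mmp2, Mmp13, Mmp14 and Timp1, whose counting errors are wide. No paired analysis was possible because there is 1 group.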
